A study of Homo sapiens with 24 samples.

Results

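The 48 genes described here encode the enzymes of glycolysis, the pentose phosphate pathway and the TCA (tricarboxylic acid) cycle, with the glucose and lactate transporters and the malic enzymes that connect them to the rest of the cell. They were taken by name from a table of 58302 genes, and all 48 of the 48 named genes were found there. Gene expression was measured by sequencing polyadenylated RNA of A549 cells, an established line of human lung cancer. One population had been transduced with a lentivirus for GPD1 and the other with a blank vector lentivirus, and each was cultured with 10 mM metformin or without it. The 4 groups of 3 labelled libraries are therefore GPD1 metformin, GPD1 untreated, vector metformin and vector untreated. The labels give no treatment time, no promoter and no statement on clones. Nor do they say if the 3 libraries per group are separate cultures, so that p-values measure no more than the spread among libraries, possibly a technical one. The series holds 24 samples, and its 12 samples of 786-O kidney cancer cells were not analysed here.

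Glycolysis splits glucose into pyruvate and yields ATP and NADH, and lactate dehydrogenase returns the NAD+ that GAPDH needs. The pentose phosphate pathway draws on glucose 6-phosphate to make NADPH and ribose. Pyruvate enters the mitochondrion, where the pyruvate dehydrogenase complex makes the acetyl-CoA that the TCA cycle oxidises. Metformin, a biguanide given for diabetes, inhibits complex I of the respiratory chain, and cells so treated are known to take up more glucose. GPD1, the glycerol-3-phosphate dehydrogenase of the cytosol, spends NADH to reduce dihydroxyacetone phosphate, an intermediate of glycolysis between aldolase and triose phosphate isomerase. The study set out to learn how GPD1 bears on cancer cell growth in the presence and absence of the drug.

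Levels are given in FPKM, fragments per kilobase of exon scaled to sequencing depth. The table names no unit, and RPKM cannot be told apart from it. The transgene checked the labels. GPD1 (ENSG00000167588) stood at 13.3, 13.8 and 13.3 FPKM in GPD1 metformin libraries and at 15.7, 16.8 and 15.1 FPKM in GPD1 untreated libraries, against 0.0662, 0.0702 and 0.0248 FPKM in vector metformin libraries and 0.0873, 0.103 and 0.0408 FPKM in vector untreated libraries. The 6 GPD1 libraries were all far above the 6 vector libraries, 250.5-fold under metformin and 206-fold without it. The keratins of the epithelium fitted a carcinoma line in part: KRT8 and KRT18 lay between 64.4 and 149 FPKM, CDH1 between 2.26 and 9.29 FPKM, EPCAM between 0.240 and 1.57 FPKM, and KRT19 was at 0.0869 FPKM or less. The kidney tubule gene PAX8 was at 0.162 FPKM or less, while PAX2 and CDH16 reached 2.48 and 2.90 FPKM. The leukocyte gene PTPRC and the endothelial genes PECAM1, VWF and CDH5 were at 0.0299 FPKM or less, CD3E was listed at 0, and COL1A1 lay between 2.24 and 5.41 FPKM. CD14, also a leukocyte marker, was higher in GPD1 cells, with 5.95 to 10.7 FPKM in their 6 libraries against 0.111 to 0.785 FPKM in the 6 vector libraries. COL1A2 and DCN, of fibroblasts, were listed at 0. CDH1 and PAX2 were highest in vector untreated libraries, and the part of any of these marker genes in the results was not tested. The depth read from the steps between low values was 13.3 M to 18.0 M reads per library. Transcripts of the mitochondrial genome held between 10.3% and 11.4% of all FPKM in GPD1 metformin libraries and between 30.2% and 32.3% in GPD1 untreated ones, against 13.7% to 14.9% in vector cells given metformin and 32.9% to 33.2% in untreated vector cells. That share enters every other gene's FPKM, so each result below was repeated with 3 other scalings. They were median-ratio factors, upper-quartile factors and totals without mitochondrial genes.

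Of the 48 genes 46 averaged 1 FPKM or more in the 12 libraries and entered the test, and the means ran from 0.366 FPKM for HK2 to 716 FPKM for GAPDH. Fold changes were taken on log2(FPKM + 1), which understates the change of weakly expressed genes, and tested in limma with Benjamini-Hochberg adjustment over all 12607 tested genes. Linear folds are ratios of mean FPKM. A gene is called higher or lower at an adjusted p under 0.05. In GPD1 cells metformin left 11 of the 46 genes higher, where 26.1% of all tested genes were called higher, and 15 lower, where 48.0% of all tested genes were. In vector cells it left 10 higher (background 31.3%) and 23 lower (background 43.3%). Each of these counts except the lower one in vector cells was below the share of all tested genes. These splits moved with the scaling, and the shares of all tested genes given here and below are those on the deposited scale. In GPD1 cells they were 25 higher and 7 lower with median-ratio factors, 25 and 6 with upper-quartile factors, and 4 and 33 with totals without mitochondrial genes. In vector cells the same scalings gave 12 and 20, 12 and 21, and 4 and 34. The median log2 change of all tested genes went along with them, from -0.20 to -0.01, -0.0016 and -0.49 in GPD1 cells, and from -0.10 to 0.02, -0.03 and -0.34 in vector cells. A relative median below is a median from which the median of all tested genes on the same scaling was subtracted. Both populations called 8 of the 46 genes higher (19.7% of all tested genes) and 14 lower (35.1%), and PFKFB3 was the 1 gene called in opposite directions on the deposited scale.

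**Figure D1:**
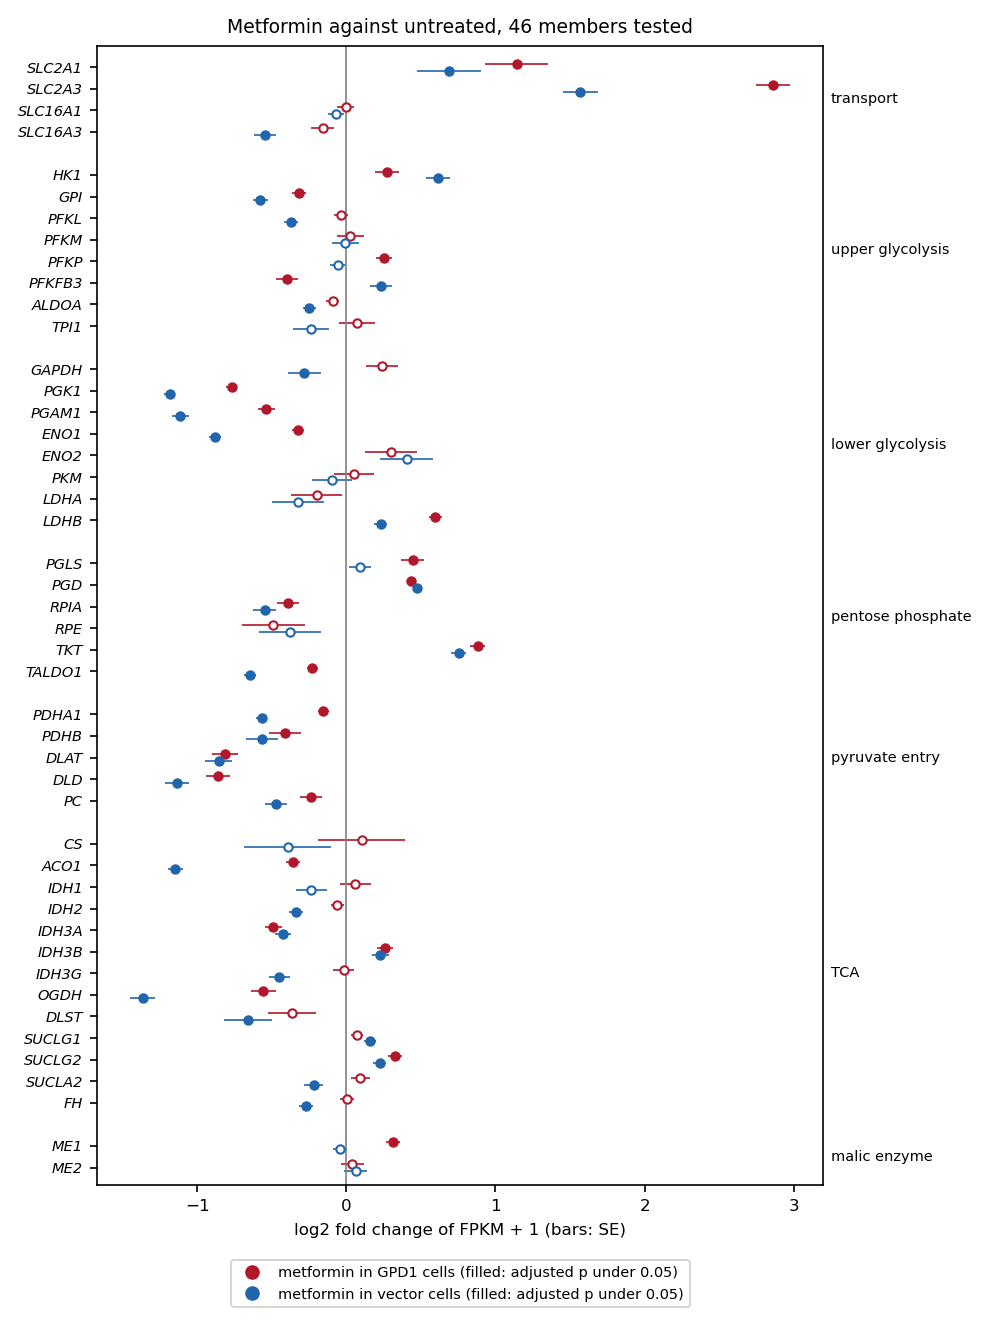
Log2 fold change of FPKM + 1 with metformin against untreated (horizontal axis) for the 46 tested genes, ordered by pathway, in GPD1 cells (red) and vector cells (blue). Bars are standard errors and filled points have an adjusted p under 0.05; SLC2A3 stands farthest to the right in both populations, at 2.86 and 1.57, and all 5 genes of pyruvate entry lie left of 0 in both.

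Between the populations most of the 46 genes were higher in GPD1 cells under the drug. Under metformin 31 of 46 genes were higher in GPD1 cells, where 25.0% of all tested genes were, and 2 were lower, where 35.0% were. Without metformin 14 were higher (background 9.99%) and 5 lower (background 11.3%). The change with metformin in GPD1 cells minus that in vector cells, the interaction, was called higher in 20 genes (background 19.1%) and lower in 2 (background 26.8%). Over the 3 other scalings the higher and lower calls under metformin numbered 27 to 38 and 1 to 3. The interaction gave 25 higher and 1 lower with median-ratio factors, 30 and 1 with upper-quartile factors, and 14 and 4 with totals without mitochondrial genes. Its median over all tested genes went from -0.04 to 0.03, 0.09 and -0.11 on the same scalings. The backgrounds above hold for the deposited scale alone, so these other counts have no background beside them. The genes higher in GPD1 cells under metformin were 3 of 4 transporters, 5 of 8 in upper glycolysis, 5 of 8 in lower glycolysis, 4 of 6 in the pentose phosphate pathway, 3 of 5 in pyruvate entry, 10 of 13 in the TCA cycle with its cytosolic counterparts ACO1 and IDH1, and 1 of 2 malic enzymes. The relative median of the 46 genes was 0.38 to 0.44 over the scalings. Of the 31 genes higher under metformin 27 kept that call on all 3 other scalings, and 28 kept it when each of the 12 libraries was left out in turn. The 5 comparisons share their groups, so that their counts are not independent of each other. In bulk RNA a change in the make-up of the cells and a change in RNA per cell cannot be told apart. The label GPD1 here stands for the transduced population, and what else differs between the 2 populations cannot be told apart from the transgene.

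**Figure D2:**
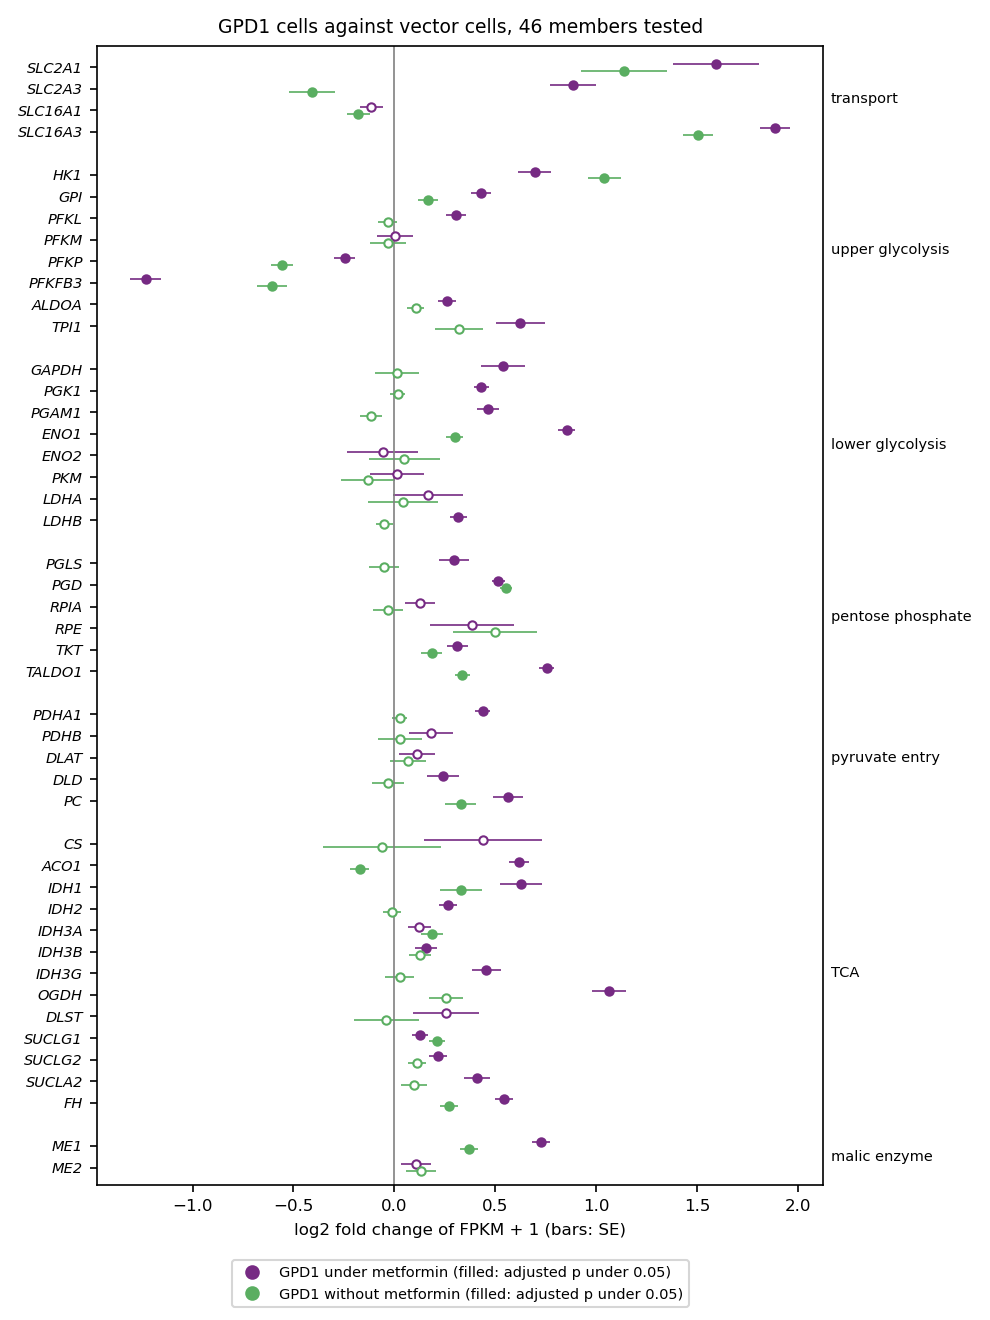
Log2 fold change of FPKM + 1 in GPD1 cells against vector cells (horizontal axis) for the 46 tested genes by pathway, under metformin (purple) and without it (green). Bars are standard errors and filled points have an adjusted p under 0.05; most points under metformin lie right of 0, with SLC16A3 at 1.89 and PFKFB3 at -1.23 as the ends of the range.

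The glucose transporters rose with metformin in both populations, and more mRNA of both glucose transporters and of a lactate exporter was measured in GPD1 cells than in vector cells under the drug. SLC2A3 encodes GLUT3, a transporter with high affinity for glucose. The gene lies at chr12:7919230-7936275 (GRCh38, ENSG00000059804). It held 34.8, 42.6 and 39.3 FPKM in GPD1 metformin libraries and 4.67, 4.13 and 4.63 FPKM in GPD1 untreated libraries, against 24.4, 16.9 and 21.0 FPKM in vector metformin libraries and 5.93, 6.46 and 6.39 FPKM in vector untreated libraries. Treated libraries were all above untreated ones, and the GPD1 metformin libraries were above all others. The change with metformin was 8.69-fold in GPD1 cells, a log2 fold change of 2.86 with an SE of 0.12 (adjusted p = 5.07e-09, limma), and 3.32-fold in vector cells, one of 1.57 with an SE of 0.12 (adjusted p = 3.45e-07, limma). The difference between them was 1.29 with an SE of 0.16 (adjusted p = 0.000105, limma). Under metformin SLC2A3 was 1.87-fold higher in GPD1 cells, a log2 fold change of 0.88 with an SE of 0.12 (adjusted p = 6.33e-05, limma). Without the drug it was lower in GPD1 cells by 1.40-fold (log2 fold change -0.41; limma, adjusted p = 0.0293), a call that ended when any 1 of the 6 untreated libraries was left out, where the adjusted p reached 0.0961.

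SLC2A1 encodes GLUT1, the common glucose transporter of cancer cells. It lies at chr1:42925375-42959173 (GRCh38, ENSG00000117394). Its levels were 56.0, 44.3 and 63.7 FPKM in GPD1 metformin libraries and 28.2, 17.7 and 27.5 FPKM in GPD1 untreated libraries, against 14.9, 18.1 and 19.1 FPKM in vector metformin libraries and 9.01, 8.77 and 13.9 FPKM in vector untreated libraries. All 6 GPD1 libraries but 1 were above all 6 vector libraries, the exception being GPD1 untreated replicate 2. With metformin SLC2A1 rose 2.24-fold in GPD1 cells, a log2 fold change of 1.14 with an SE of 0.21 (adjusted p = 0.000566, limma), and 1.64-fold in vector cells, one of 0.69 with an SE of 0.21 (adjusted p = 0.013, limma). The change in vector cells was 0.58 without vector untreated replicate 2 (limma, adjusted p = 0.0511) and 0.41 with totals without mitochondrial genes (limma, adjusted p = 0.094). GPD1 cells held 3.15-fold more than vector cells under metformin, a log2 fold change of 1.59 with an SE of 0.21 (adjusted p = 7.79e-05, limma), and 2.32-fold more without it, one of 1.14 with an SE of 0.21 (adjusted p = 0.00334, limma). For SLC2A1 the interaction did not pass, at 0.46 with a 95% interval of -0.21 to 1.12 (limma, adjusted p = 0.245).

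**Figure D3:**
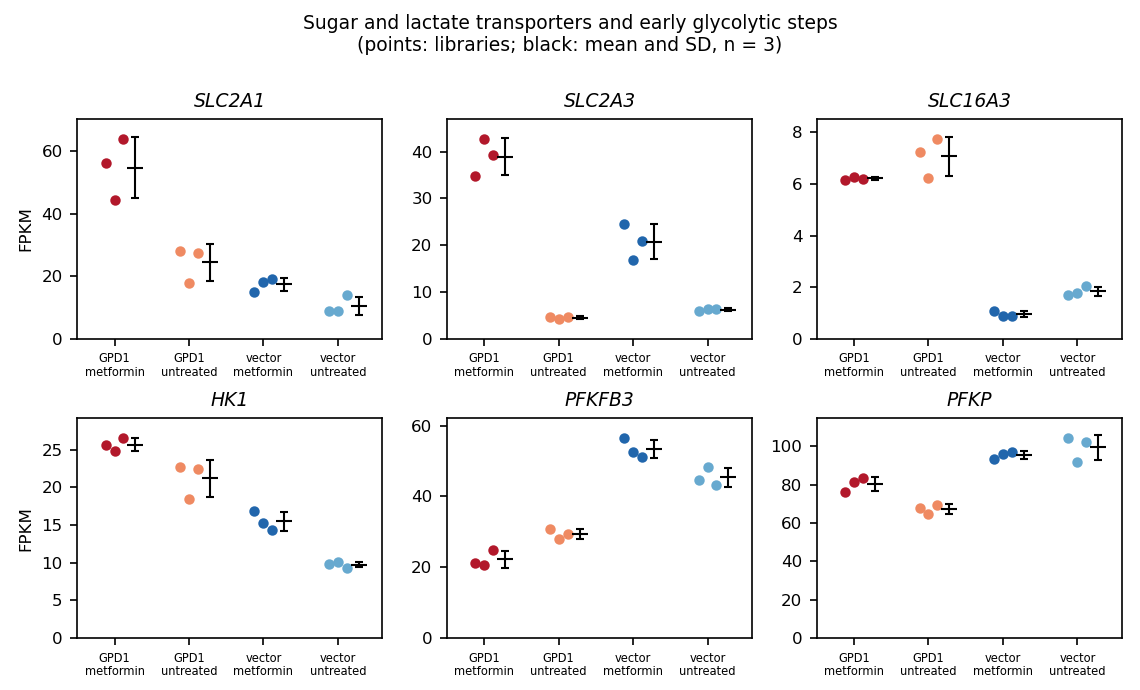
FPKM (vertical axis, from 0) of SLC2A1, SLC2A3, SLC16A3, HK1, PFKFB3 and PFKP in each library of the 4 groups, with the mean and SD of 3 libraries in black. SLC2A3 is high in both treated groups, SLC16A3 and HK1 are high in GPD1 cells, and PFKFB3 is low in them.

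SLC16A3 encodes MCT4, which exports lactate, and SLC16A1 encodes MCT1, which carries lactate and pyruvate in either direction. SLC16A3 stood at 6.16, 6.28 and 6.18 FPKM in GPD1 metformin libraries and at 7.25, 6.24 and 7.73 FPKM in GPD1 untreated libraries, against 1.08, 0.902 and 0.867 FPKM in vector metformin libraries and 1.72, 1.77 and 2.03 FPKM in vector untreated libraries. The GPD1 and vector libraries were separated by a wide gap with the drug and without it. SLC16A3 was 6.54-fold higher in GPD1 cells under metformin, a log2 fold change of 1.89 with an SE of 0.07 (adjusted p = 1.34e-08, limma), and 3.85-fold higher without it, one of 1.5 with an SE of 0.07 (adjusted p = 2.51e-07, limma). With metformin it fell in vector cells, with a log2 fold change of -0.54 (limma, adjusted p = 5.56e-05), and in GPD1 cells the change was -0.16 (limma, adjusted p = 0.076). SLC16A1 averaged 6.43 ± 0.249, 6.45 ± 0.330, 7.04 ± 0.441 and 7.43 ± 0.332 FPKM (SD, n = 3 each) in GPD1 metformin, GPD1 untreated, vector metformin and vector untreated libraries, the order used for such sets of 4 means throughout. Neither change with metformin passed for SLC16A1. The relative median of the 4 transporters was 0.70 to 0.81 over the scalings with metformin in GPD1 cells and 0.38 to 0.43 in vector cells.

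Upper glycolysis runs from hexokinase to triose phosphate isomerase. Metformin left 2 of its 8 tested genes higher and 2 lower in GPD1 cells (background 26.1% and 48.0%), and 2 higher and 3 lower in vector cells (background 31.3% and 43.3%). The relative medians were 0.13 to 0.23 and -0.10 to -0.01 over the scalings. HK1, a hexokinase that phosphorylates glucose and sits on the mitochondrial outer membrane, held 25.7, 24.8 and 26.5 FPKM in GPD1 metformin libraries and 22.7, 18.4 and 22.5 FPKM in GPD1 untreated libraries, against 16.9, 15.2 and 14.4 FPKM in vector metformin libraries and 9.78, 10.1 and 9.35 FPKM in vector untreated libraries. No library of 1 group overlapped with those of another. GPD1 cells were 1.66-fold higher under metformin, a log2 fold change of 0.69 with an SE of 0.08 (adjusted p = 2.66e-05, limma), and 2.17-fold higher without it, one of 1.04 with an SE of 0.08 (adjusted p = 7.46e-06, limma). In vector cells HK1 was higher with metformin, 1.59-fold, a log2 fold change of 0.62 with an SE of 0.08 (adjusted p = 3.7e-05, limma). In GPD1 cells the change was 0.27 (limma, adjusted p = 0.0107) and turned with the scaling, from -0.10 to 0.52, and without GPD1 untreated replicate 2 it was 0.18 (limma, adjusted p = 0.0354). HK2, the inducible hexokinase of many tumours, was not tested, with a mean under 1 FPKM: it averaged 0.229 ± 0.0794, 0.460 ± 0.0637, 0.361 ± 0.0613 and 0.417 ± 0.0311 FPKM.

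PFKFB3 makes fructose 2,6-bisphosphate, the activator of phosphofructokinase 1, and was the 1 gene called in opposite directions with metformin. It held 21.1, 20.5 and 25.0 FPKM in GPD1 metformin libraries and 30.9, 28 and 29.5 FPKM in GPD1 untreated libraries, against 56.4, 52.5 and 51.3 FPKM in vector metformin libraries and 44.7, 48.2 and 43.2 FPKM in vector untreated libraries. The 4 groups did not overlap, and GPD1 cells were low with the drug and without it. GPD1 cells were 2.40-fold lower under metformin, a log2 fold change of -1.23 with an SE of 0.07 (adjusted p = 2.03e-07, limma), and 1.54-fold lower without it, one of -0.61 with an SE of 0.07 (adjusted p = 0.00022, limma). The interaction was -0.63 with an SE of 0.11 (adjusted p = 0.000713, limma). The separate changes with metformin were -0.40 in GPD1 cells (limma, adjusted p = 0.000597) and 0.23 in vector cells (limma, adjusted p = 0.016). Over the scalings the first of these ran from -0.77 to -0.14 and the second from -0.06 to 0.38, so that the sign in vector cells turned, and the call in GPD1 cells ended with median-ratio and upper-quartile factors. The call in vector cells also ended without vector metformin replicate 1 (limma, adjusted p = 0.06) and without vector untreated replicate 3 (limma, adjusted p = 0.0594).

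Phosphofructokinase 1, the committed step of glycolysis, has a platelet, a liver and a muscle isozyme. PFKP, the platelet form, averaged 80.5 ± 3.70, 67.3 ± 2.48, 95.6 ± 2.01 and 99.5 ± 6.51 FPKM, and was lower in GPD1 cells without metformin in all 3 libraries, 1.48-fold, a log2 fold change of -0.56 with an SE of 0.05 (adjusted p = 3.92e-05, limma). Under metformin the difference was -0.25 (limma, adjusted p = 0.00235; -0.35 to -0.06 over the scalings), and it was not called with median-ratio or upper-quartile factors. With metformin PFKP was called higher in GPD1 cells (0.26; limma, adjusted p = 0.00131). That change ran from -0.13 to 0.51 over the scalings, and on another scaling it was called lower. PFKL, the liver form, averaged 8.71 ± 0.372, 8.94 ± 0.297, 6.86 ± 0.371 and 9.17 ± 0.160 FPKM, and fell with metformin in vector cells (log2 fold change -0.37; limma, adjusted p = 3.37e-05). PFKM, the muscle form, averaged 9.29 ± 0.707, 9.10 ± 0.740, 9.26 ± 0.169 and 9.36 ± 1.27 FPKM and passed in no comparison.

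Among the remaining genes of upper glycolysis, GPI, which isomerises glucose 6-phosphate to fructose 6-phosphate, was lower with metformin in both populations: it averaged 55.4 ± 0.921, 69.3 ± 0.288, 40.9 ± 0.816 and 61.7 ± 4.73 FPKM, and its log2 fold change was -0.32 in GPD1 cells (-0.70 to -0.06 over the scalings, not called with median-ratio or upper-quartile factors) and -0.58 in vector cells (-0.87 to -0.42). ALDOA, the main aldolase, averaged 36.6 ± 1.92, 39.0 ± 0.868, 30.3 ± 0.888 and 36.2 ± 0.661 FPKM and was called lower with metformin in vector cells (-0.25; limma, adjusted p = 0.000355; -0.54 to -0.09 over the scalings), a call that ended with median-ratio factors. Its exons overlap on the same strand with those of AC093512.2 over 42.3% of their length in GENCODE 29, so their reads may be shared. ALDOC, the brain aldolase, was not tested and averaged 1.21 ± 0.0931, 0.992 ± 0.0758, 0.867 ± 0.0891 and 0.768 ± 0.321 FPKM. TPI1, which converts dihydroxyacetone phosphate into glyceraldehyde 3-phosphate, averaged 119 ± 8.32, 114 ± 24.5, 76.6 ± 5.95 and 90.0 ± 1.52 FPKM. It was called in 1 comparison, higher in GPD1 cells under metformin (0.62; limma, adjusted p = 0.00106). The pseudogene TPI1P1 was listed at 67.3 to 96.1 FPKM, close to TPI1 itself, so the division of reads between the 2 loci is uncertain.

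Lower glycolysis turns glyceraldehyde 3-phosphate into lactate. Metformin left 1 of its 8 tested genes higher and 3 lower in GPD1 cells (background 26.1% and 48.0%). In vector cells it left 1 higher and 4 lower (background 31.3% and 43.3%). The 3 consecutive enzymes PGK1, PGAM1 and ENO1 were called lower in both populations, ENO1 in GPD1 cells on 2 of the 4 scalings. Of all tested genes 35.1% were called lower in both. PGK1, phosphoglycerate kinase, makes the first ATP of the pathway and is encoded at chrX:78065188-78129296 (GRCh38, ENSG00000102144). Its level was 61.8, 66.7 and 64.8 FPKM in GPD1 metformin libraries and 112, 108 and 111 FPKM in GPD1 untreated libraries, against 48.7, 47.0 and 46.9 FPKM in vector metformin libraries and 108, 108 and 111 FPKM in vector untreated libraries. The untreated groups overlapped with each other, and both treated groups were below them. PGK1 fell 1.71-fold in GPD1 cells, a log2 fold change of -0.77 with an SE of 0.04 (adjusted p = 1.67e-08, limma), and 2.29-fold in vector cells, one of -1.18 with an SE of 0.04 (adjusted p = 5.93e-10, limma).

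PGAM1, phosphoglycerate mutase, held 54.5, 55.0 and 62.1 FPKM in GPD1 metformin libraries and 85.5, 84.0 and 80.4 FPKM in GPD1 untreated libraries, against 40.2, 41.7 and 41.6 FPKM in vector metformin libraries and 94.5, 86.5 and 89.7 FPKM in vector untreated libraries. Its treated libraries were all below the untreated ones, and those of vector cells were lowest. The fall was 1.46-fold in GPD1 cells, a log2 fold change of -0.54 with an SE of 0.05 (adjusted p = 5.38e-06, limma), and 2.19-fold in vector cells, one of -1.11 with an SE of 0.05 (adjusted p = 1.48e-08, limma), and the interaction was 0.58 with an SE of 0.08 (adjusted p = 0.000153, limma). ENO1, the ubiquitous enolase, stood at 576, 581 and 604 FPKM in GPD1 metformin libraries and 756, 734 and 715 FPKM in GPD1 untreated libraries, against 329.8, 317 and 326 FPKM in vector metformin libraries and 617, 608 and 567 FPKM in vector untreated libraries. Vector metformin libraries stood apart at the bottom, with GPD1 metformin libraries in the range of vector untreated ones. In vector cells the fall was 1.84-fold, a log2 fold change of -0.88 with an SE of 0.04 (adjusted p = 1.06e-08, limma), and in GPD1 cells the change was -0.32 (limma, adjusted p = 3.12e-05). ENO1 was 1.81-fold higher in GPD1 cells under metformin, a log2 fold change of 0.85 with an SE of 0.04 (adjusted p = 4.43e-08, limma), with an interaction of 0.55 with an SE of 0.06 (adjusted p = 3e-05, limma). In the fits with other scalings the change of ENO1 in GPD1 cells ran from -0.71 to -0.06, and it was not called with median-ratio or upper-quartile factors.

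**Figure D4:**
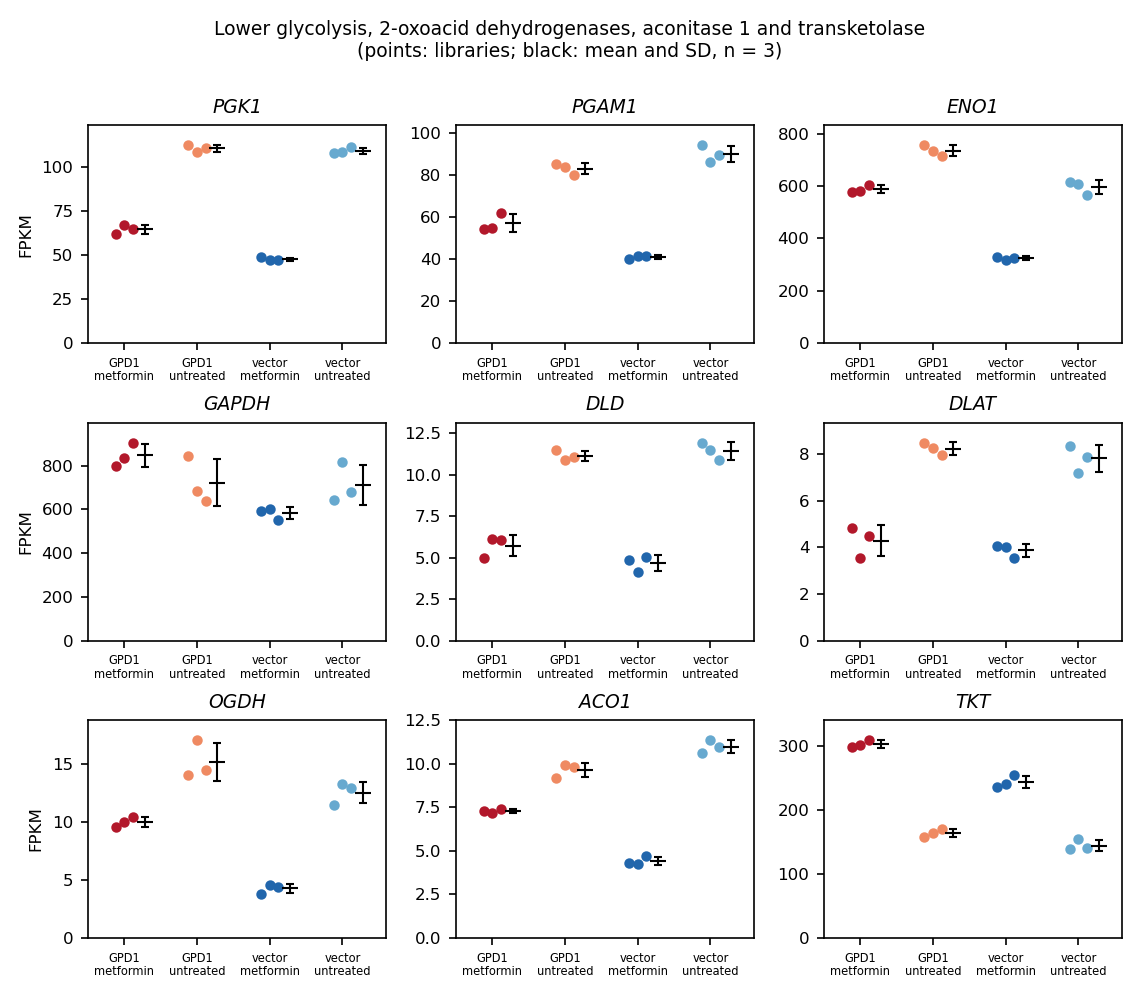
FPKM (vertical axis, from 0) of PGK1, PGAM1, ENO1, GAPDH, DLD, DLAT, OGDH, ACO1 and TKT in each library of the 4 groups, with the mean and SD of 3 libraries in black. PGK1, PGAM1, DLD, DLAT, OGDH and ACO1 are lower in both treated groups than in the untreated groups, with vector metformin lowest for PGK1, PGAM1, OGDH and ACO1, while TKT is higher in both treated groups.

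LDHB, the lactate dehydrogenase subunit of heart muscle, went the other way. It held 342, 354 and 330.3 FPKM in GPD1 metformin libraries and 231, 226 and 219 FPKM in GPD1 untreated libraries, against 264, 276 and 283 FPKM in vector metformin libraries and 232, 227 and 242 FPKM in vector untreated libraries. Both treated groups were above both untreated groups. LDHB rose 1.52-fold in GPD1 cells, a log2 fold change of 0.60 with an SE of 0.04 (adjusted p = 2.84e-07, limma). In vector cells its change was 0.23 (limma, adjusted p = 0.000482) and ran from -0.07 to 0.39 over the scalings, so that its sign turned. Exons of LDHB overlap on the same strand with AC010197.2 over 33.4% of their length. LDHA, the subunit of skeletal muscle and most tumours, averaged 48.5 ± 3.28, 57.0 ± 15.4, 43.2 ± 4.81 and 54.6 ± 9.35 FPKM and passed in no comparison. The pseudogene LDHAP4 was listed at 6.49 to 11.35 FPKM, so the division of reads between it and LDHA is uncertain. GAPDH, which makes the NADH of glycolysis, averaged 848 ± 54.1, 721 ± 108, 583 ± 26.1 and 713 ± 90.8 FPKM. Its interaction was 0.52 with an SE of 0.16 (adjusted p = 0.018, limma) and lost its call with no filter on low genes (limma, adjusted p = 0.0551). GAPDH was 1.45-fold higher in GPD1 cells under metformin (limma, adjusted p = 0.00153). In vector cells it was called lower with metformin (-0.28; limma, adjusted p = 0.0369), a call that did not hold on all 4 scalings. That call also ended when any 1 of 4 libraries was left out (limma, adjusted p of up to 0.15). The copies of GAPDH in the table summed to 62.5 to 103 FPKM, most of it GAPDHP1. ENO2, the neuronal enolase, averaged 10.4 ± 1.23, 8.24 ± 0.85, 11.0 ± 2.39 and 8.05 ± 2.04 FPKM, and PKM, pyruvate kinase of muscle and tumours, 93.3 ± 5.14, 91.0 ± 17.2, 92.3 ± 6.55 and 98.9 ± 12.8 FPKM, and neither passed in any comparison. Splicing of PKM into its M1 and M2 forms cannot be seen in a value per gene. Relative to all genes the median of the 8 genes of lower glycolysis was 0.03 to 0.19 with metformin in GPD1 cells and -0.26 to -0.17 in vector cells over the scalings.

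The promoters of a few members are shown because some genes of glycolysis are known to carry sites for HIF-1, whose core motif is ACGTG. Some are also known to carry sites for MYC, MAX and the carbohydrate response factors, whose E-box is CACGTG. Sequences are the 250 bases before the start of transcription, from RefSeq on GRCh38.p14, and 45 of the 48 genes had such a sequence. Both motifs were searched on both strands. Each CACGTG also holds ACGTG on both strands. PGK1 (chrX:78103998-78104247, plus strand) fell with metformin in both populations, LDHA (chr11:18394313-18394562, plus strand) passed in none of the 5 comparisons, and SLC2A1 (chr1:42958869-42959118, minus strand) rose with metformin in both. The windows of PGK1 and SLC2A1 lie inside, and that of LDHA partly inside, the spans that the annotation of the table gives these genes, which include earlier starts. Capitals mark ACGTG or its reverse complement, read 5′ to 3′ on the strand of the gene.
PGK1: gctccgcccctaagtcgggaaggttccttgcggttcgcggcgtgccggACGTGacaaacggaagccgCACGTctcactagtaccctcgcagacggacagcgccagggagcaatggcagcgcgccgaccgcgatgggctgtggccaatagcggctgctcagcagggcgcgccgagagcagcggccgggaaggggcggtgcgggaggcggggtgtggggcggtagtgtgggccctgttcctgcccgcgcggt
LDHA: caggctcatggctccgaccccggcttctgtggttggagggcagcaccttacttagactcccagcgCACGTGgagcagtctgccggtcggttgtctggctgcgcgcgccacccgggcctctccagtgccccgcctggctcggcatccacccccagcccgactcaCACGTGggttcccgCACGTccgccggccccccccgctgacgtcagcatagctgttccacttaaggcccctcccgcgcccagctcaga
SLC2A1: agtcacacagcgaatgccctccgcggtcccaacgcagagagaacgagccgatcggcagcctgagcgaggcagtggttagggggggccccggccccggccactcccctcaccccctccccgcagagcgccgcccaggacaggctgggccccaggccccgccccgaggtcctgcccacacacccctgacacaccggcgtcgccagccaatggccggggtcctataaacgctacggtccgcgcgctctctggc
PGK1 holds ACGTG in both orientations and no CACGTG, LDHA holds CACGTG at 2 places and a further ACGTG, and the letters of neither motif stand in the window of SLC2A1. Of the 45 windows of members 14 (31.1%) held ACGTG, against 18.5% of 35116 promoter windows of the table, and 4 (8.89%) held CACGTG, against 6.35%. Each member entered with a single window, while the 35116 were not reduced to a window per gene. The other members with CACGTG were ALDOC, GAPDH and PDHB. PGAM1 and ENO1, which fell with PGK1, held neither. A match describes the letters in this window and is not evidence of a bound site.

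In the pentose phosphate pathway TKT and PGD were called higher with metformin in both populations, PGD in GPD1 cells with a call that ended with totals without mitochondrial genes, while RPIA and TALDO1 were called lower in both, TALDO1 in GPD1 cells with a sign that turned on 2 scalings. TKT, transketolase, links the pathway to glycolysis in its non-oxidative branch and is encoded at chr3:53224707-53256052 (GRCh38, ENSG00000163931). Its level was 298, 302 and 310.1 FPKM in GPD1 metformin libraries and 158, 165 and 171 FPKM in GPD1 untreated libraries, against 237, 241 and 255 FPKM in vector metformin libraries and 139, 155 and 140.1 FPKM in vector untreated libraries. Every treated library was above every untreated one. TKT rose 1.85-fold in GPD1 cells, a log2 fold change of 0.88 with an SE of 0.05 (adjusted p = 6.75e-08, limma), and 1.69-fold in vector cells, one of 0.75 with an SE of 0.05 (adjusted p = 1.96e-07, limma). Both changes kept their call on the 3 other scalings.

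PGD, 6-phosphogluconate dehydrogenase, yields NADPH and ribulose 5-phosphate. It held 634, 649 and 656 FPKM in GPD1 metformin libraries and 483, 468 and 481 FPKM in GPD1 untreated libraries, against 449, 450.3 and 455 FPKM in vector metformin libraries and 318, 330.2 and 326 FPKM in vector untreated libraries. The 4 groups did not overlap, and GPD1 cells were above vector cells under either condition. Without metformin PGD was 1.47-fold higher in GPD1 cells, a log2 fold change of 0.55 with an SE of 0.03 (adjusted p = 6.06e-07, limma). With metformin PGD changed by 0.44 in GPD1 cells (0.05 to 0.70 over the scalings) and by 0.47 in vector cells (0.18 to 0.63).

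TALDO1, transaldolase, stood at 69.8, 69.0 and 72.8 FPKM in GPD1 metformin libraries and 81.8, 81.7 and 84.8 FPKM in GPD1 untreated libraries, against 41.0, 40.2 and 42.9 FPKM in vector metformin libraries and 66.3, 65.8 and 63.9 FPKM in vector untreated libraries. Vector metformin libraries were the lowest and GPD1 untreated libraries the highest. Under metformin TALDO1 was 1.71-fold higher in GPD1 cells, a log2 fold change of 0.76 with an SE of 0.04 (adjusted p = 5.63e-08, limma). Its change with metformin was -0.65 in vector cells (limma, adjusted p = 5.76e-08). In GPD1 cells it was -0.23 (limma, adjusted p = 0.000234), with a range of -0.61 to 0.03 over the scalings in which the sign turned. RPIA, ribose 5-phosphate isomerase, averaged 9.53 ± 0.997, 12.8 ± 0.273, 8.64 ± 0.864 and 13.1 ± 0.315 FPKM, with changes of -0.39 in GPD1 cells (-0.75 to -0.15 over the scalings, not called with median-ratio or upper-quartile factors) and -0.55 in vector cells (-0.82 to -0.40). PGLS, 6-phosphogluconolactonase, averaged 15.0 ± 0.963, 10.8 ± 0.298, 12.1 ± 1.32 and 11.2 ± 0.634 FPKM and was called higher with metformin in GPD1 cells (0.44; limma, adjusted p = 0.000264), a call that ended at 0.08 with totals without mitochondrial genes. RPE, ribulose 5-phosphate epimerase, averaged 5.56 ± 1.40, 8.06 ± 0.398, 4.0 ± 0.988 and 5.54 ± 1.57 FPKM and passed in no comparison, with a spread inside groups that reached 3.74 to 6.63 FPKM among the vector untreated libraries. The relative median of the 6 genes was 0.20 to 0.36 with metformin in GPD1 cells and -0.06 to -0.02 in vector cells.

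All 5 listed enzyme genes of pyruvate entry, 4 of the pyruvate dehydrogenase complex and pyruvate carboxylase, were called lower with metformin in both populations, PDHA1 in GPD1 cells with a sign that turned with the scaling. Of all tested genes 48.0% were called lower in GPD1 cells, 43.3% in vector cells and 35.1% in both. PDHX of the same complex, outside the list, was called higher in vector cells (0.25; limma, adjusted p = 0.000681). Other unlisted genes of pyruvate entry went in both directions, as given below. DLD is the dihydrolipoamide dehydrogenase subunit that the pyruvate and 2-oxoglutarate dehydrogenase complexes share, encoded at chr7:107890970-107931730 (GRCh38, ENSG00000091140). DLD held 4.97, 6.11 and 6.05 FPKM in GPD1 metformin libraries and 11.5, 10.9 and 11.1 FPKM in GPD1 untreated libraries, against 4.86, 4.14 and 5.02 FPKM in vector metformin libraries and 11.9, 11.5 and 10.9 FPKM in vector untreated libraries. The treated libraries of both populations were far below the untreated ones. DLD fell 1.95-fold in GPD1 cells, a log2 fold change of -0.86 with an SE of 0.08 (adjusted p = 2.19e-06, limma), and 2.45-fold in vector cells, one of -1.13 with an SE of 0.08 (adjusted p = 2.15e-07, limma).

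DLAT, the acetyltransferase core of the pyruvate dehydrogenase complex, stood at 4.84, 3.54 and 4.48 FPKM in GPD1 metformin libraries and 8.51, 8.27 and 7.95 FPKM in GPD1 untreated libraries, against 4.05, 4.0 and 3.56 FPKM in vector metformin libraries and 8.34, 7.22 and 7.90 FPKM in vector untreated libraries. Its treated groups overlapped with each other and neither overlapped with an untreated group. The fall was 1.92-fold in GPD1 cells, a log2 fold change of -0.81 with an SE of 0.09 (adjusted p = 9.59e-06, limma), and 2.02-fold in vector cells, one of -0.86 with an SE of 0.09 (adjusted p = 5.84e-06, limma). Its interaction did not pass (0.04, 95% interval -0.24 to 0.32).

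PDHA1 and PDHB, the subunits of the decarboxylase that opens the complex, averaged 6.65 ± 0.0819, 7.52 ± 0.226, 4.65 ± 0.0700 and 7.36 ± 0.0566 FPKM and 3.48 ± 0.408, 4.95 ± 0.639, 2.94 ± 0.341 and 4.84 ± 0.634 FPKM. PDHA1 changed by -0.15 in GPD1 cells (-0.50 to 0.07 over the scalings) and by -0.57 in vector cells (-0.82 to -0.43 over the scalings). Its exons overlap on the opposite strand with MAP3K15 over 21.3% of their length, and the kit is not stated to keep the strand, so reads of the 2 genes cannot be told apart there. PC, pyruvate carboxylase, feeds oxaloacetate to the cycle and averaged 5.23 ± 0.276, 6.35 ± 0.381, 3.23 ± 0.388 and 4.86 ± 0.376 FPKM. Its call with metformin in GPD1 cells, at -0.24, ended without GPD1 metformin replicate 1 (limma, adjusted p = 0.0532) or GPD1 untreated replicate 2 (limma, adjusted p = 0.0523). PC was 1.62-fold higher in GPD1 cells under metformin (limma, adjusted p = 7.74e-05) and 1.31-fold higher without it (limma, adjusted p = 0.0104). Exons of PC overlap on the opposite strand with LRFN4 over 10.5% of their length. LRFN4 was listed at 15.0 to 32.7 FPKM, and reads cannot be told apart there either. The relative median of the 5 genes was -0.23 to -0.20 with metformin in GPD1 cells and -0.48 to -0.46 in vector cells over the scalings. DLAT and DLD kept their call on all scalings in both populations, and PDHA1, PDHB and PC did so in vector cells but were not called in GPD1 cells with median-ratio or upper-quartile factors.

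The genes of the TCA cycle were called in both directions. Of the 13 genes, which include the cytosolic ACO1 and IDH1, 2 were higher and 3 lower with metformin in GPD1 cells (background 26.1% and 48.0%), and 3 were higher and 8 lower in vector cells (background 31.3% and 43.3%), with relative medians of 0.12 to 0.26 and -0.28 to -0.21 over the scalings. OGDH, the decarboxylase of the 2-oxoglutarate dehydrogenase complex, held 9.54, 10.0 and 10.5 FPKM in GPD1 metformin libraries and 14.1, 17.1 and 14.5 FPKM in GPD1 untreated libraries, against 3.82, 4.55 and 4.43 FPKM in vector metformin libraries and 11.5, 13.3 and 12.9 FPKM in vector untreated libraries. The vector metformin libraries stood apart at less than every other library. OGDH fell 1.52-fold in GPD1 cells, a log2 fold change of -0.56 with an SE of 0.08 (adjusted p = 0.000109, limma), and 2.94-fold in vector cells, one of -1.36 with an SE of 0.08 (adjusted p = 7.8e-08, limma). Under metformin it was 2.35-fold higher in GPD1 cells, a log2 fold change of 1.06 with an SE of 0.08 (adjusted p = 1.28e-06, limma), and its interaction was 0.81 with an SE of 0.12 (adjusted p = 0.000268, limma).

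ACO1 is the cytosolic aconitase, which also serves as an iron sensor when it loses its cluster. It held 7.29, 7.19 and 7.42 FPKM in GPD1 metformin libraries and 9.16, 9.94 and 9.80 FPKM in GPD1 untreated libraries, against 4.30, 4.23 and 4.71 FPKM in vector metformin libraries and 10.6, 11.4 and 11.0 FPKM in vector untreated libraries. The 4 groups did not overlap. In vector cells ACO1 fell 2.49-fold, a log2 fold change of -1.15 with an SE of 0.05 (adjusted p = 5.16e-09, limma), and the interaction was 0.79 with an SE of 0.07 (adjusted p = 8.47e-06, limma). In GPD1 cells its change was -0.36 (limma, adjusted p = 5.29e-05; -0.70 to -0.12 over the scalings), not called with upper-quartile factors.

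DLST, the succinyltransferase of the 2-oxoglutarate dehydrogenase complex, stood at 14.1, 14.3 and 16.1 FPKM in GPD1 metformin libraries and 20.1, 19.8 and 18.3 FPKM in GPD1 untreated libraries, against 15.7, 8.48 and 13.7 FPKM in vector metformin libraries and 19.2, 20.3 and 20.3 FPKM in vector untreated libraries. Vector metformin replicate 2 was low against its group. DLST fell in vector cells, a log2 fold change of -0.66 with an SE of 0.16 (adjusted p = 0.00352, limma), and that call held without any 1 library, although the value was -0.42 without that replicate (limma, adjusted p = 0.000619). CS, citrate synthase, was listed at 4.37, 12.2 and 13.6 FPKM in vector metformin libraries, so that 1 library, replicate 1, was well below every other. CS lay between 11.0 and 13.6 FPKM in the other 11 libraries and passed in no comparison.

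Isocitrate dehydrogenase occurs as the NADP-dependent IDH1 of the cytosol and IDH2 of the mitochondrion and as the NAD-dependent IDH3 of the cycle. IDH1 averaged 22.6 ± 2.22, 21.6 ± 2.43, 14.2 ± 0.793 and 17.0 ± 2.01 FPKM and was 1.59-fold higher in GPD1 cells under metformin (limma, adjusted p = 0.000379). IDH2 averaged 26.0 ± 0.804, 27.2 ± 1.62, 21.5 ± 0.538 and 27.4 ± 0.498 FPKM, with vector metformin lowest. The catalytic subunit IDH3A averaged 2.38 ± 0.175, 3.74 ± 0.0944, 2.1 ± 0.119 and 3.16 ± 0.172 FPKM and was called lower with metformin in both populations, at -0.49 in GPD1 cells (-0.78 to -0.30 over the scalings) and -0.43 in vector cells (-0.64 to -0.31). IDH3B, a regulatory subunit, averaged 15.3 ± 0.397, 12.7 ± 0.848, 13.6 ± 0.155 and 11.5 ± 0.745 FPKM and was called higher in both populations, although its sign turned in both with totals without mitochondrial genes. IDH3G, another regulatory subunit, averaged 9.70 ± 0.505, 9.83 ± 0.297, 6.82 ± 0.837 and 9.63 ± 0.233 FPKM. IDH3G fell in vector cells (-0.45; limma, adjusted p = 0.000159), and its change in GPD1 cells was -0.02 (limma, adjusted p = 0.833). Exons of IDH3G overlap on the opposite strand with SSR4 over 10.2% of their length, where reads of both cannot be told apart. SSR4 was listed at 17.9 to 18.5 FPKM in GPD1 metformin libraries and at 9.57 to 11.9 FPKM in the others.

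Succinyl-CoA ligase joins an alpha subunit, SUCLG1, to a GTP-forming beta subunit, SUCLG2, or an ATP-forming one, SUCLA2. SUCLG1 averaged 19.9 ± 0.252, 18.9 ± 0.786, 18.2 ± 0.486 and 16.2 ± 0.337 FPKM, SUCLG2 52.0 ± 1.65, 41.2 ± 0.495, 44.6 ± 0.936 and 38.1 ± 2.11 FPKM and SUCLA2 6.25 ± 0.350, 5.80 ± 0.557, 4.45 ± 0.237 and 5.34 ± 0.160 FPKM. Metformin left SUCLG2 higher in both populations (0.33 and 0.23) and SUCLG1 higher in vector cells (0.16). All 3 values turned negative with totals without mitochondrial genes, where SUCLG1 was called lower in vector cells. FH, fumarase, averaged 48.6 ± 1.24, 48.4 ± 1.47, 33.0 ± 0.916 and 40.0 ± 2.13 FPKM, and was 1.47-fold higher in GPD1 cells under metformin (limma, adjusted p = 2.29e-06) and 1.21-fold higher without it (limma, adjusted p = 0.00179).

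The malic enzymes turn malate into pyruvate. ME1, the cytosolic one, yields NADPH and held 49.0, 45.7 and 47.0 FPKM in GPD1 metformin libraries and 38.3, 38.1 and 37.1 FPKM in GPD1 untreated libraries, against 27.7, 27.4 and 29.2 FPKM in vector metformin libraries and 27.9, 30.6 and 28.6 FPKM in vector untreated libraries. All GPD1 libraries were above all vector libraries, and the 2 vector groups overlapped. ME1 was 1.68-fold higher in GPD1 cells under metformin, a log2 fold change of 0.73 with an SE of 0.04 (adjusted p = 2.27e-07, limma), and 1.30-fold higher without it (limma, adjusted p = 0.00019). ME2, a mitochondrial form, averaged 1.76 ± 0.232, 1.67 ± 0.0280, 1.55 ± 0.0927 and 1.45 ± 0.195 FPKM and passed in no comparison.

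The levels per kilobase also show which isozyme of a family prevailed, as a description with no test. SLC2A3 made up 41.8% ± 6.25 of the summed FPKM of SLC2A1 and SLC2A3 in GPD1 metformin libraries (mean ± SD, n = 3). Its share was 15.9% ± 2.67 in GPD1 untreated libraries, against 54.3% ± 7.17 in vector metformin libraries and 37.9% ± 5.69 in vector untreated libraries. SLC16A3 made up 49.1% ± 0.744 of SLC16A1 and SLC16A3 in GPD1 metformin libraries and 52.2% ± 3.94 in GPD1 untreated libraries, against 11.9% ± 1.11 in vector metformin libraries and 19.9% ± 1.60 in vector untreated libraries. Among HK1, HK2 and HKDC1, the share of HK1 was 67.9% ± 0.991 in GPD1 metformin libraries and 53.4% ± 3.33 in GPD1 untreated libraries, against 68.6% ± 1.48 in vector metformin libraries and 32.6% ± 1.09 in vector untreated libraries. HKDC1, a hexokinase not among the 48 genes, held most of the remainder. LDHA, without its pseudogene copies, held 12.4% ± 0.998 of the summed FPKM of LDHA and LDHB in GPD1 metformin libraries. Its share was 20.0% ± 3.94 in GPD1 untreated libraries, against 13.6% ± 1.55 in vector metformin libraries and 18.9% ± 2.88 in vector untreated libraries. PFKP held 77.3% to 86.1% of the summed FPKM of PFKL, PFKM and PFKP in the 12 libraries.

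**Figure D5:**
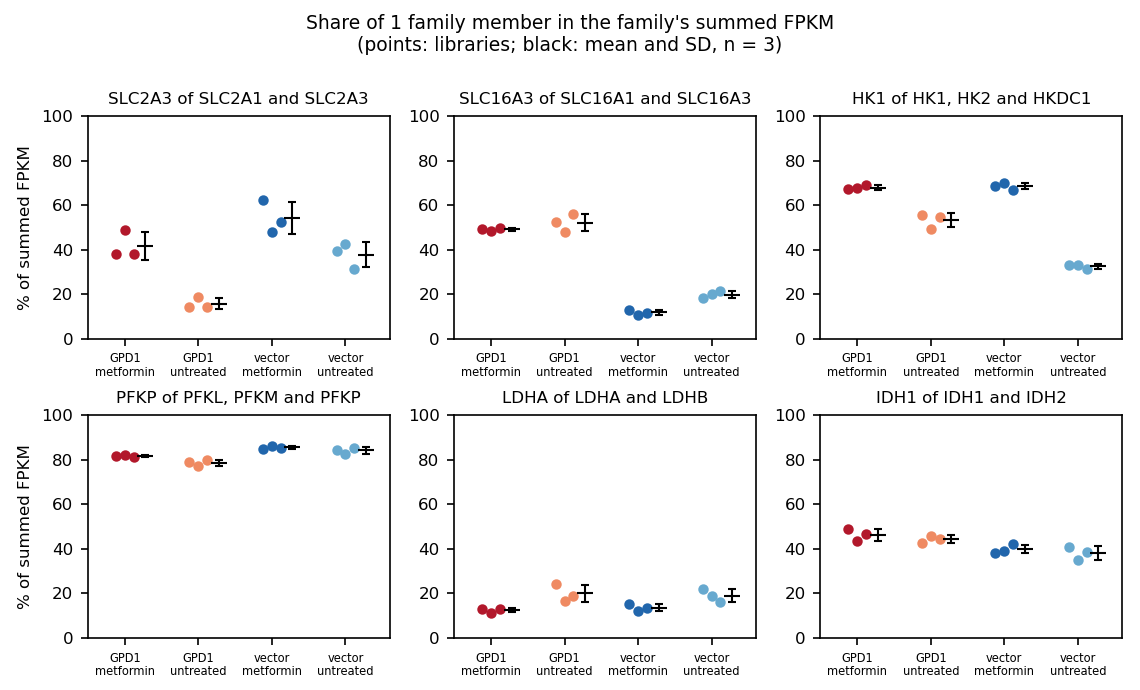
Share (vertical axis, %) of 1 gene in the summed FPKM of its family in each library of the 4 groups, with the mean and SD of 3 libraries in black. SLC2A3 gains share with metformin in both populations, SLC16A3 holds a larger share in GPD1 cells than in vector cells, and the share of HK1 is lowest in vector untreated libraries.

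A further 32 genes of the same pathways were listed, of which 28 were tested. Metformin left 5 higher and 13 lower in GPD1 cells (background 26.1% and 48.0%), and 8 higher and 12 lower in vector cells (background 31.3% and 43.3%). In GPD1 cells 11 were higher and 5 lower under metformin (background 25.0% and 35.0%) and 3 higher and 2 lower without it (background 9.99% and 11.3%). Their interaction was called higher in 9 and lower in 4 (background 19.1% and 26.8%). The glycolytic hexokinase HKDC1 fell with metformin in vector cells to 7.32, 6.10 and 6.75 FPKM, against 19.1, 20.0 and 20.0 FPKM in vector untreated libraries, a log2 fold change of -1.43 with an SE of 0.06 (adjusted p = 2.95e-09, limma). H6PD, the hexose 6-phosphate dehydrogenase of the endoplasmic reticulum, fell in the same cells to 2.73, 3.15 and 3.39 FPKM, against 9.46, 9.55 and 9.79 FPKM, a log2 fold change of -1.38 with an SE of 0.09 (adjusted p = 1.95e-07, limma). PDK3, a kinase that switches off pyruvate dehydrogenase, fell to 1.40, 1.18 and 1.33 FPKM, against 3.76, 3.76 and 3.39 FPKM in vector untreated libraries, a log2 fold change of -1.01 with an SE of 0.06 (adjusted p = 6.8e-08, limma). The groups did not overlap for these 3 genes. In GPD1 cells all 3 were also called lower with metformin on all 4 scalings. Their changes there were -0.56, -0.80 and -0.64 (limma, adjusted p = 4.77e-06, 1.63e-05 and 2.88e-06). PDK4, a more abundant kinase of the same enzyme, and MPC2 and PDHX are named after their values were seen, because they went the other way. PDK4 averaged 24.4 ± 0.997, 19.1 ± 0.588, 36.7 ± 3.40 and 27.0 ± 1.26 FPKM and was called higher with metformin, at 0.34 in GPD1 cells (limma, adjusted p = 0.00063) and 0.43 in vector cells (limma, adjusted p = 0.000116), with both calls ending with totals without mitochondrial genes, where the sign in GPD1 cells turned. MPC2, a subunit of the mitochondrial pyruvate carrier, averaged 46.6 ± 2.44, 24.4 ± 4.6, 36.0 ± 2.54 and 30.7 ± 3.10 FPKM and was called higher with metformin in GPD1 cells on all 4 scalings (0.92; limma, adjusted p = 4.43e-05). PDHX, a further component of the pyruvate dehydrogenase complex, averaged 5.60 ± 0.270, 5.45 ± 0.0506, 6.31 ± 0.172 and 5.15 ± 0.289 FPKM and was called higher in vector cells (0.25; limma, adjusted p = 0.000681), which ended with totals without mitochondrial genes. Among the 8 tested other genes of pyruvate entry 2 were called higher and 3 lower with metformin in GPD1 cells, and 3 higher and 2 lower in vector cells. PDP2, a phosphatase that switches pyruvate dehydrogenase on, was listed at 1.84, 7.89 and 8.74 FPKM in vector metformin libraries, against 1.33, 0.919 and 1.32 FPKM in vector untreated libraries, a log2 fold change of 1.52 with an SE of 0.37 (adjusted p = 0.00309, limma). Vector metformin replicate 1, the library low for CS, was also the one near the untreated level here, and without it the change was 2.09 (limma, adjusted p = 1.96e-07).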

How the data were processed

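Polyadenylated RNA of 12 A549 libraries in 4 groups of 3 was sequenced. Per the labels' protocols the libraries were made with NEBNext Ultra, and no strand setting is stated. The submitters' processing notes name CASAVA 1.8, HISAT2 2.1.0, edgeR and GRCh38, with no role for each. The deposited table holds FPKM values that the authors computed per gene; the unit was inferred from its values, and RPKM cannot be told apart. Steps between low values gave whole reads, within 0.02 of a whole number up to 10 reads, for 65.0% to 69.7% of values, so no reads were recovered for a count test, and depth was read from them as an estimate. One read on 1 kilobase was worth 0.0557 to 0.0753 FPKM, which limits the precision of low genes. Within groups the Pearson correlation of libraries was 0.983 to 0.988, and no 2 libraries were identical.

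Genes that averaged 1 FPKM or more in the 12 libraries entered the test on log2(FPKM + 1) with limma 3.58.1 in R 4.3.3, with a mean-variance trend, 4 group means and Benjamini-Hochberg adjustment at 0.05. The procedure was tested on simulated data. Summaries used Python 3.11.15, pandas 2.3.3 and numpy 2.4.6. The members, the gene lists and the tests were chosen with earlier results of these data known. Every member is named with its levels; fold changes with SE are given for up to 8 members per direction and comparison, called, with groups that did not overlap and an absolute log2 change of at least 0.5. Alternatives were 3 scalings, no filter, a mean of at least 5 FPKM, a pseudocount of 0.1, only the groups compared, a replicate block, removal of a trend with gene length, a minimum log2 change of 1, and leaving out each library. Of the 48 members 41 had the same locus in GENCODE 29.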

Additional observations from a re-analysis of the deposited data

Results flagged for a closer look

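The change with metformin differed between the 2 populations, by the test of the difference itself (limma, adjusted p under 0.05), in 22 of the 46 tested genes. Of all 12607 tested genes, 19.1% were called higher by this test and 26.8% lower. Each value is the log2 fold change in GPD1 cells minus that in vector cells. Among the 20 positive values, those above 0.4 were SLC2A3 1.29, OGDH 0.81, ACO1 0.79, PGAM1 0.58, ENO1 0.55, GAPDH 0.52, IDH3G 0.43, TALDO1 0.42, PGK1 0.41 and PDHA1 0.41. The other positive values were SLC16A3 0.38, LDHB 0.37, ME1 0.36, PGLS 0.35, PFKL 0.34, SUCLA2 0.31, PFKP 0.31, IDH2 0.28, FH 0.27 and GPI 0.26. The 2 negative values were PFKFB3 -0.63 and HK1 -0.35. For HK1 the call ended when any 1 of 7 libraries was left out (GPD1 metformin 1 and 2, GPD1 untreated 1 and 3, vector metformin 1, vector untreated 1 and 3), with adjusted p-values of 0.0512 to 0.0685 in limma. The share of mitochondrial transcripts also differs between the groups; with totals without mitochondrial genes 14 were higher and 4 lower.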

How the results depend on the processing

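The 43 log2 fold changes of members given with a standard error kept their direction in each refit that held them, and the calls lost there were those of SLC2A1 and GAPDH, as given with their values. A minimum log2 change of 1 was applied to the counts and ends the call of each change below it. HKDC1, H6PD, PDK3 and PDP2 were followed over the scalings and the left-out libraries alone, and kept their calls in vector cells. Counts of genes called higher and lower moved with the scaling and with the size of change asked for, and the cause was not tested. With metformin in GPD1 cells 11 higher and 15 lower became 25 and 7 with median-ratio factors, 25 and 6 with upper-quartile factors, 4 and 33 with totals without mitochondrial genes, and 2 and 0 with a log2 change of at least 1. With metformin in vector cells 10 and 23 became 4 higher with totals without mitochondrial genes, and 1 and 5 with a log2 change of at least 1. For GPD1 under metformin 31 and 2 became 1 lower with median-ratio or upper-quartile factors, and 3 and 1 with a log2 change of at least 1. For GPD1 without metformin 14 and 5 became 3 lower with median-ratio factors or no filter, and 3 and 0 with a log2 change of at least 1. For the interaction 20 and 2 became 1 lower with median-ratio factors, upper-quartile factors or no filter, 4 lower with totals without mitochondrial genes, and 1 and 0 with a log2 change of at least 1; a fit of only the groups compared gives no interaction.

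Leaving out 1 library gave 11 to 14 higher and 14 to 17 lower with metformin in GPD1 cells, 9 to 12 and 22 to 26 with metformin in vector cells, 29 to 31 and 2 to 3 for GPD1 under metformin, 10 to 14 and 2 to 5 for GPD1 without metformin, and 20 to 22 and 1 to 2 for the interaction. The lower count for GPD1 without metformin was 2 without GPD1 untreated replicate 1, GPD1 untreated replicate 3 or vector untreated replicate 3, and 3 without each of the other untreated libraries. No pairing by replicate number was seen: correlations of same-numbered deviations ran from -0.065 to 0.056, and 4 of 12 libraries correlated best with their own number. Such correlations cannot tell whether same-numbered libraries were handled together. With a replicate block the counts were 11 and 16, 10 and 23, 31 and 2, 13 and 4, and 20 and 2 in the same order. Low genes are limited by depth: the no-filter fit called HK2 lower with metformin in GPD1 cells (-0.25; limma, adjusted p = 0.0101), and no other comparison of HK2 or ALDOC passed.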
